A study of Mus musculus with 3 samples.

Results

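The expression of 10 immediate early genes, Fos, Fosb, Jun, Junb, Jund, Egr1, Atf3, Nr4a1, Ier2 and Btg2, was examined across the cell classes of the mouse brain by single-cell RNA sequencing (scRNA-seq). The genes were taken by symbol from the 31053 genes of the count matrix, and each of the 10 symbols was listed once. The 3 libraries were made from brain tissue of mice labelled C56BL6 and aged 10 weeks. They represent control animals, Ischemic Stroke (IS; occlusion of the middle cerebral artery followed by reperfusion) and Hemorrhagic Stroke (HS; collagenase IV injected into the striatum). Each library held cells of several mice, pooled, after dissociation with an adult brain dissociation kit, and cells were loaded on the 10x Chromium platform with 3' v3 chemistry. The libraries are told apart by a barcode suffix from 1 to 3, and because the sources used here do not assign the suffixes to the conditions, no comparison between control, IS and HS was made. With 1 library per condition there is no replicate, so no test was run, and the range over the suffixes is given as the spread.

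Immediate early genes are transcribed within minutes of a stimulus, without new protein synthesis, because the factors that switch them on are already present and need only be phosphorylated. Fos and Jun proteins pair to form the transcription factor AP-1, and Egr1, Atf3 and Nr4a1 are likewise transcription factors that carry the signal to later genes. In the brain they are best known as marks of recent neuronal activity, but glia, vascular cells and leukocytes induce them as well after injury, growth factors or cytokines. Enzymatic dissociation of tissue is itself a known inducer, which is why these genes are often read as a handling signature in scRNA-seq. The sources used here do not say whether transcription was blocked during dissociation, and no undissociated tissue was profiled, so the part that handling plays in the levels below was not tested.

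The matrix held 35968 barcodes and 247726514 unique molecular identifiers (UMIs, each standing for 1 captured RNA molecule), with medians of 5326.5 to 5733 UMIs per barcode in the 3 suffixes. After removal of barcodes under 1000 UMIs or above 30% mitochondrial UMIs, 31982 cells remained. A cell was placed in a class when it held UMIs of at least 3 of that class's markers and at least 4 marker UMIs in all, none of the 10 genes being a marker. In this way 26400 cells fell into 13 classes of at least 50 cells, 3785 cells passed the gates of more than 1 class and were left out as possible doublets, and 1683 passed no gate. Cells of more than 1 class made up 20.7% of suffix 3 but 8.46% and 8.08% of suffixes 1 and 2. The classes were 10236 microglia-like, 9330 oligodendrocyte-like, 2339 T-cell-like, 1891 neuroblast-like, 795 endothelial-like, 376 oligodendrocyte-precursor-like, 339 NK-cell-like, 330 neutrophil-like, 315 astrocyte-like, 161 mural-cell-like, 109 choroid-plexus-like, 90 border-associated-macrophage-like and 89 monocyte/dendritic-cell-like cells. In every class at least 2 of the 10 genes with the highest fold over the other classes were its own markers, and none of the 10 immediate early genes was among them. A marker of another class stood there once, Clec10a in border-associated-macrophage-like cells. Since cells were gated on the markers of their class, the lead of those markers follows from the gate and is no separate check of identity. Only 44 cells passed the neuron gate, so neurons, the cells in which these genes are classically read, could not be described. The suffixes also differed in composition, since 778 of the 795 endothelial-like, 138 of the 161 mural-cell-like and 66 of the 90 border-associated-macrophage-like cells carried suffix 3, whereas only 21 T-cell-like and 2 NK-cell-like cells did. A class was described within a suffix where it had at least 50 cells there. Of 35858 barcode sequences, 110 occurred in more than 1 library.

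The 10 genes lie on 7 chromosomes of GRCm38 (mm10), and all are protein-coding. In GENCODE vM21, Fos spans chr12:85473890-85477273 on the plus strand, Jun chr4:95049034-95052222 on the minus strand, and Fosb chr7:19302696-19310051 on the minus strand. Chromosome 8 carries Jund (chr8:70698949-70700616, plus strand), Ier2 (chr8:84661331-84662852, minus strand) and Junb (chr8:84974484-84978718, minus strand). Atf3 (chr1:191170296-191218039) and Btg2 (chr1:134075170-134079120) are both on the minus strand of chromosome 1, and Nr4a1 occupies chr15:101254269-101274795 on the plus strand.

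RefSeq windows of the 250 bases before the transcription start (GRCm38.p6) were at hand for 8 of the 10 genes, all but Egr1 and Ier2. The start is that of RefSeq and not always that of the GENCODE gene given above. It is the same base for Fos and Jun and lies 6 to 35 bases away for Fosb, Junb and Btg2. For Jund it lies 1210 bases before the GENCODE start, and for Nr4a1 and Atf3 12577 and 34706 bases inside the GENCODE gene, so these 3 windows stand before another start than that of the GENCODE gene. The letters TGACG, the core of the element bound by CREB and ATF proteins, were searched on both strands and occurred in 6 of the 8 windows (Fos, Fosb, Junb, Atf3, Nr4a1 and Btg2), against 17.8% of all 32851 windows. The full palindrome TGACGTCA, which contains TGACG on both strands, occurred in Btg2 alone of the 8 and in 1.55% of all windows. TATAAA occurred in Fos alone of the 8 and in 12.4% of all windows, and a CArG box, the motif of serum response factor, occurred in none of the 8 and in 1.47% of all windows. Only the exact letters CC, 6 of A or T, and GG were searched for the CArG box. Elements with other letters or beyond the 250 bases would be missed, so these genes cannot be said to lack one. The windows of 4 genes are printed 5' to 3' because their levels set the cell classes apart below, Fos and Nr4a1 in opposite order in microglia and T cells, Fosb beside Fos, and Btg2 as the holder of the palindrome. Capitals mark TGACG on either strand (CGTCA where it lies on the other strand) and TATAAA. A match is a description of the letters and not evidence of a bound factor. The Fos window is chr12:85473640-85473889 (plus strand), Fosb chr7:19310046-19310295 (minus), Nr4a1 chr15:101266596-101266845 (plus) and Btg2 chr1:134079156-134079405 (minus).
Fos: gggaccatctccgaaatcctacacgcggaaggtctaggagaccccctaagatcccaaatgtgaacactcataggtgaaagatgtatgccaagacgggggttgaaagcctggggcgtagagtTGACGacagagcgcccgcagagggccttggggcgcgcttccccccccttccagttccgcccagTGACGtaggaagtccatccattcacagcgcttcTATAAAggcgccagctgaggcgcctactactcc
Fosb: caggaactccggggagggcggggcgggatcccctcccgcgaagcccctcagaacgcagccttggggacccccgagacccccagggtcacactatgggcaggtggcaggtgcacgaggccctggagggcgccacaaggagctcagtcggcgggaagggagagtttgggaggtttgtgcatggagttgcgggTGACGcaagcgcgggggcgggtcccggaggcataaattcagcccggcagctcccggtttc
Nr4a1: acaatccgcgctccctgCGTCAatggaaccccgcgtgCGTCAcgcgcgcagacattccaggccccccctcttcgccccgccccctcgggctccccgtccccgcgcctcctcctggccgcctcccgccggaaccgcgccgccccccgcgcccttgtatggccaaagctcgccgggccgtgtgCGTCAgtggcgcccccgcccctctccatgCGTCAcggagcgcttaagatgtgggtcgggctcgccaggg
Btg2: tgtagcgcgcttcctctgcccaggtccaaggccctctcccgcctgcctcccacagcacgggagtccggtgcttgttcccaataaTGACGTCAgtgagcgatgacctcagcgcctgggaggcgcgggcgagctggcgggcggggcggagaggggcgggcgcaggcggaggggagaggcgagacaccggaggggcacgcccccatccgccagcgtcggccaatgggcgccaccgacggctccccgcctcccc
In Fos the TGACG runs begin 129 and 66 bases before the RefSeq start and TATAAA begins 33 bases before it. Nr4a1 has 4 runs, all on the other strand, whose first letters lie 233, 213, 69 and 40 bases before the RefSeq start.

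The cell classes differed widely in how much of their RNA came from the 10 genes. Summed over the 10 genes, immediate early transcripts made up 4.74% of all UMIs of endothelial-like cells, 4.02% of mural-cell-like cells and 3.83% of border-associated-macrophage-like cells. Microglia-like cells followed at 2.08%. Within suffix 3, which held most cells of the first 3 classes, microglia-like cells had 3.50%. The shares there were 4.74% in endothelial-like, 4.12% in mural-cell-like and 4.30% in border-associated-macrophage-like cells. The leukocytes lay lower, at 1.52% in neutrophil-like, 0.927% and 1.24% in NK-cell-like (suffixes 1 and 2), 0.945% in T-cell-like and 0.858% in monocyte/dendritic-cell-like cells. Within suffix 1, however, neutrophil-like cells were level with microglia-like cells, at 1.74% against 1.76%. In suffix 2 they had 1.49% against 1.98%. The cells of neural origin were lower again for the most part, with 0.859% in neuroblast-like, 0.717% in astrocyte-like, 0.633% in oligodendrocyte-precursor-like and 0.249% in oligodendrocyte-like cells, and the choroid-plexus-like cells were lowest at 0.107%. All 10 genes were found together in 82.4% of endothelial-like cells, 65.8% of mural-cell-like cells, 27.1% of microglia-like cells and 0.493% of oligodendrocyte-like cells. No endothelial-like, mural-cell-like, neutrophil-like, NK-cell-like or monocyte/dendritic-cell-like cell lacked all 10.

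**Figure D1:**
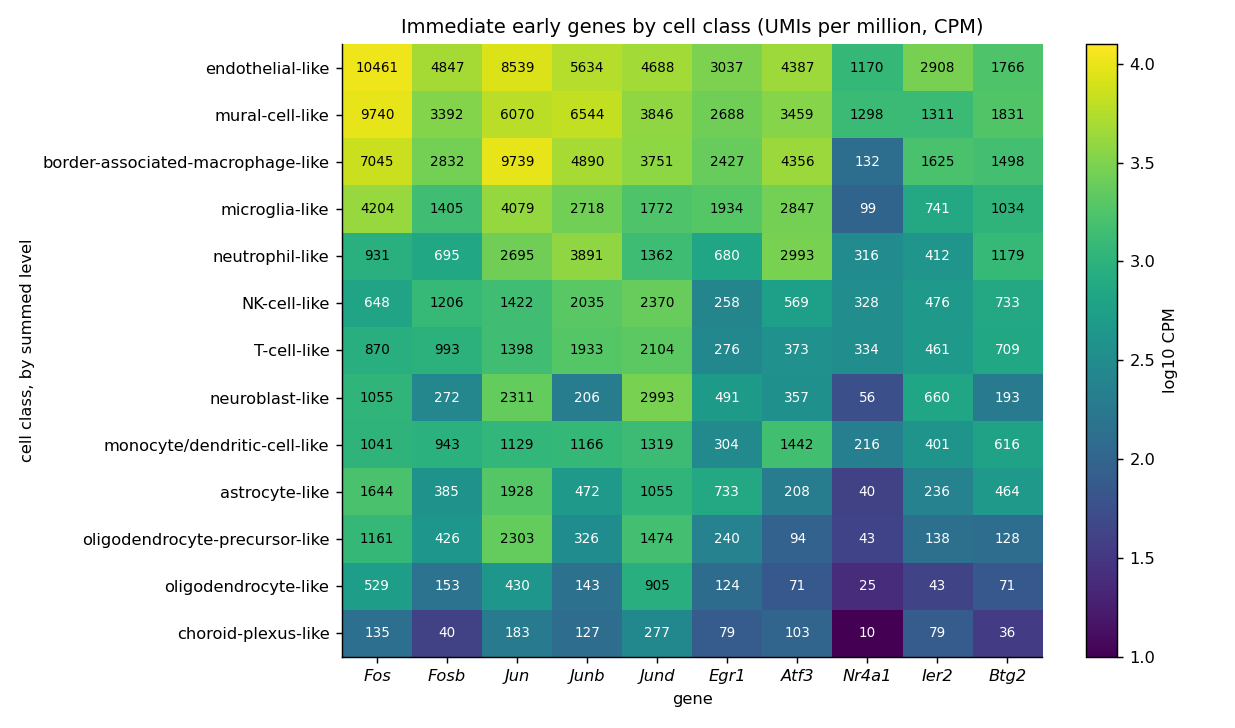
Level of each immediate early gene (columns) in each cell class (rows, ordered by the summed level), as CPM (the UMIs of the gene relative to all UMIs of the class, 10000 CPM being 1% of them), with colour on a log10 scale. The endothelial-like, mural-cell-like and border-associated-macrophage-like rows are the brightest for most genes, and Nr4a1 is low in the microglia-like and border-associated-macrophage-like rows, at 99.4 and 132 CPM.

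Cells of 1 class were not alike. The median microglia-like cell devoted 2.17% of its UMIs to the 10 genes, but the 5th and 95th percentiles were 0.148% and 5.66%. Border-associated-macrophage-like cells were the most dispersed, with 0.233% at the 25th percentile and 5.62% at the 75th. In astrocyte-like cells the median was 0.134%, below the 0.189% of the median oligodendrocyte-like cell, although the pooled astrocyte-like level was higher (0.717% against 0.249%). The pooled astrocyte-like value was therefore carried by the upper tail, whose 95th percentile was 2.46%. Endothelial-like cells were high almost throughout, with 1.42% at the 5th percentile and 8.70% at the 95th.

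**Figure D2:**
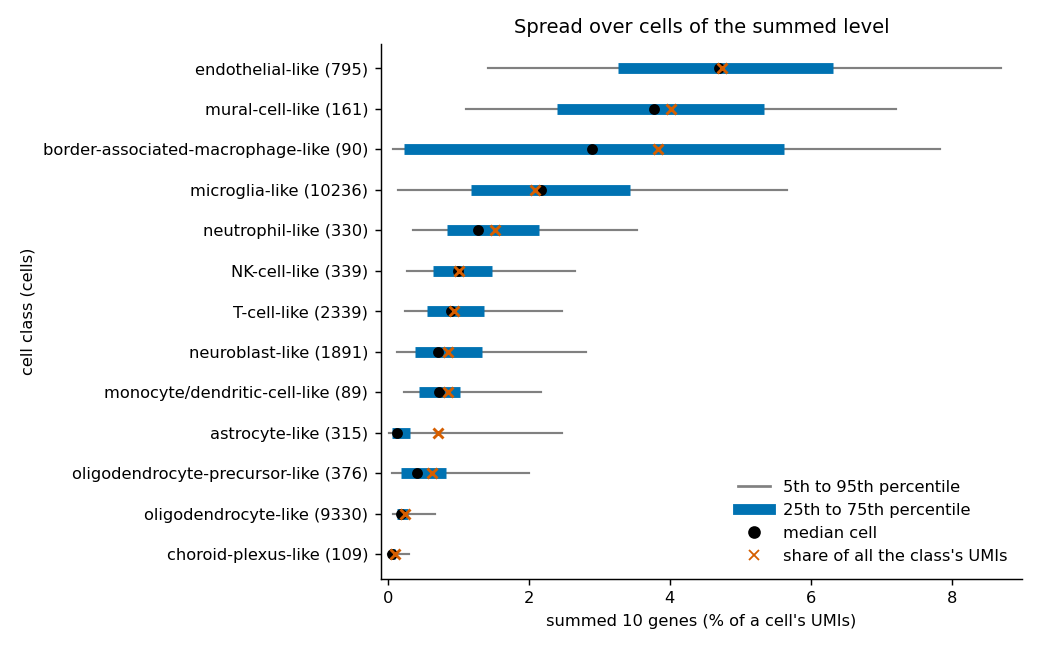
Summed share of the 10 genes in the UMIs of each cell (horizontal axis, percent), by cell class with its number of cells (vertical axis). Grey lines run from the 5th to the 95th percentile, blue bars from the 25th to the 75th, black dots mark the median cell and orange crosses the share in all UMIs of the class. In astrocyte-like cells the cross (0.717%) lies beyond the blue bar, which ends at 0.320%.

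Levels are given as CPM over all cells of a class, with the exact 95% Poisson interval where it matters. Intervals cover counting error only, and since 3' counting takes 1 tag per molecule the values were not scaled to gene length and are compared between classes rather than between genes. Fos, the AP-1 subunit that defines the group, reached 10461 CPM in endothelial-like cells (95% interval 10377 to 10546), 9740.5 in mural-cell-like and 7045 in border-associated-macrophage-like cells. In microglia-like cells Fos was 3583, 4176 and 6067 CPM in suffixes 1, 2 and 3. These 4 classes stood apart from all others for Fos, the next being astrocyte-like cells at 1644 CPM. In oligodendrocyte-like cells Fos was 650.1, 366 and 585 CPM in the 3 suffixes, and in choroid-plexus-like cells 135 CPM over all cells, so that the highest class exceeded the lowest 77.3-fold. The highest class lay almost wholly in suffix 3 and the lowest in suffixes 1 and 2, so class and library cannot be told apart in that fold. Between astrocyte-like cells and the next 7 classes in the order, down to oligodendrocyte-like cells, every pair of neighbours overlapped in spread. Overlap was judged on the ranges over suffixes and not suffix by suffix, so overlapping classes may still keep 1 order within each suffix. For endothelial-like, mural-cell-like, border-associated-macrophage-like and monocyte/dendritic-cell-like cells no range over suffixes was available. Their counting interval took its place, so for them standing apart covers counting error only and not differences between libraries.

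Fosb, which encodes a second Fos protein and a long-lived truncated form, kept the order at its head, with 4847 CPM in endothelial-like, 3392 in mural-cell-like, 2832 in border-associated-macrophage-like and 1405 in microglia-like cells. The lymphocytes came next and not the astrocytes. NK-cell-like cells had 1144 and 1409 CPM in suffixes 1 and 2, and T-cell-like cells 964 and 1013. Oligodendrocyte-like cells had 168, 136 and 159 CPM in the 3 suffixes, below every suffix of microglia-like cells (1246, 1334 and 2199).

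Among the Jun genes, Jun itself was highest in border-associated-macrophage-like cells (9739 CPM), then in endothelial-like (8539) and mural-cell-like cells (6070.0). In microglia-like cells Jun was 3192, 3584 and 9019 CPM in the 3 suffixes, so that the cells of suffix 3 were on a level with the vessel cells. In neuroblast-like cells it was 1732, 2144 and 3022 CPM, in the same range as in oligodendrocyte precursors (2526 and 2107 CPM in suffixes 1 and 2). Junb, which encodes an AP-1 subunit with weaker activating capacity than Jun, was ordered quite differently. It was highest in mural-cell-like cells (6544 CPM), and the neutrophil-like cells stood at the head of the leukocytes with 4502 and 3870.4 CPM in suffixes 1 and 2. Neuroblast-like cells, which were in the range of oligodendrocyte precursors for Jun, held only 170, 231 and 213 CPM of Junb, close to oligodendrocyte-like cells with 173, 148 and 120.

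Jund, the Jun gene that many resting cells express without a stimulus, varied least. It ranged from 4688 CPM in endothelial-like to 277 CPM in choroid-plexus-like cells, a 16.9-fold span, whereas the spans of the other 9 genes ran from 38.3-fold for Egr1 to 129-fold for Nr4a1. For all but Atf3 and Ier2 the lowest class was the choroid-plexus-like, with 4 of 109 cells in suffix 3, which held most cells of the highest classes. Class and library cannot be told apart in those spans, and that of Nr4a1 rests on 9 choroid-plexus-like UMIs. Within suffix 3, endothelial-like cells exceeded oligodendrocyte-like cells 4.97-fold for Jund, and from 17.6-fold (Fos) to 61.3-fold (Atf3) for the others. Neuroblast-like cells were the fourth class for Jund (2451, 2877 and 3617 CPM), above microglia-like cells in every suffix (1594, 1727 and 2490 CPM). Jund was also the member that most oligodendrocyte-like cells held, with 93.6% of cells against 63.7% for Fos and 13.3% for Nr4a1.

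Egr1, a zinc finger factor induced by growth factors and synaptic activity, followed Fos. It reached 3037 CPM in endothelial-like cells and 1658, 1801 and 3366 CPM in microglia-like cells, with a gap to the astrocyte-like cells at 542, 902 and 711. With the spread taken as for Fos, Egr1 had the most neighbours that overlapped, 9 of 12 pairs, and Fosb the fewest, 4 of 12. Atf3, a stress-responsive factor that mostly represses its targets, singled out the myeloid cells along with the vessels. It was 4387 CPM in endothelial-like, 4356 in border-associated-macrophage-like and 3459 in mural-cell-like cells, and neutrophil-like cells (3594 and 2963 CPM) were level with microglia-like cells (2695.5, 2656 and 4223 CPM). Atf3 was low in the oligodendrocyte lineage, at 70.8 CPM in oligodendrocyte-like and 94.0 CPM in oligodendrocyte-precursor-like cells, and lay within the range of choroid-plexus-like cells (18.1 and 192 CPM in suffixes 1 and 2).

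Nr4a1, an orphan nuclear receptor induced by antigen receptor signalling in T cells and by many stimuli in vessels, departed most from Fos. It was 1298 CPM in mural-cell-like and 1170.3 CPM in endothelial-like cells. T-cell-like cells had 306 and 351 CPM, NK-cell-like cells 307 and 391 and neutrophil-like cells 360.4 and 307. All of these exceeded microglia-like cells, which held 108, 90.3 and 122 CPM in the 3 suffixes although their Fos was high. Only 32.2% of microglia-like cells had a UMI of Nr4a1, against 93.8% for Fos. Ier2, a small nuclear protein of the early growth response, was 2908 CPM in endothelial-like cells and 42.8 CPM in oligodendrocyte-like cells, the lowest of the 13 classes. Neuroblast-like cells had 373, 658 and 925 CPM of Ier2 in suffixes 1, 2 and 3, below microglia-like cells of the same suffix (525, 775 and 1172), although the ranges over suffixes overlapped. Btg2, an antiproliferative partner of the mRNA deadenylation machinery, was 1831 CPM in mural-cell-like and 1766 in endothelial-like cells. It was 849, 1017 and 1635 CPM in microglia-like cells and 141, 211 and 220 CPM in neuroblast-like cells of suffixes 1, 2 and 3.

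The share of cells holding a gene depends on depth, so each cell was also thinned to 1000 UMIs. On that footing Fos was found in 95.6% of endothelial-like, 91.3% of mural-cell-like and 83.0% of microglia-like cells, in 48.1% of neuroblast-like and 27.3% of oligodendrocyte-like cells, and in 16.5% of choroid-plexus-like cells. Before thinning, the Fos shares were 98.9% in endothelial-like, 93.8% in microglia-like and 63.7% in oligodendrocyte-like cells, whose median depths were 5301, 7346 and 6065.5 UMIs. The choroid-plexus-like share was the lowest of any class, at a median depth of 6003 UMIs. Only 4 of these cells carried suffix 3, so they give no such mark for the suffix of most vessel cells. Nr4a1 was found in 59.4% of endothelial-like cells after thinning, in 26.3% of T-cell-like, 8.13% of microglia-like and 2.78% of oligodendrocyte-like cells, and in 0 of 109 choroid-plexus-like cells, which allows a share of up to 2.75%. At full depth Nr4a1 was 24.5 CPM in oligodendrocyte-like cells (95% interval 23.3 to 25.8) and 10.1 CPM in choroid-plexus-like cells (4.60 to 19.1). Jund remained in 56.0% of oligodendrocyte-like cells after thinning. The summed level of 9 microglial marker genes in the other classes was 40.6 to 162 CPM, apart from 960.4 CPM in border-associated-macrophage-like cells, against 4666 CPM in microglia-like cells, and it was 83.3 CPM in oligodendrocyte-like and 40.6 CPM in endothelial-like cells.

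To count genes that set a class apart, the CPM of each class was compared with the median class of the same suffix, after adding 10 CPM, and a gene was called when it differed at least 2-fold in every suffix in which the class had 50 cells. Of all genes, 11129 reached 20 CPM in a class and were counted, the 10 members among them. Oligodendrocyte-like cells had the clearest pattern. They were at least 2-fold below the median class for 6 of the 10 genes (Fosb, Jun, Atf3, Nr4a1, Ier2 and Btg2), against 1.72% of all genes, and above it for 0 of 10, against 9.26%. T-cell-like cells exceeded the median class for 2 of 10 genes, Junb and Nr4a1 (6.43% of all genes), and fell below it for 0 of 10 (2.84%). Endothelial-like cells, present in suffix 3 only, exceeded it for 3 of 10, Fosb, Nr4a1 and Ier2 (10.7%), and fell below it for 0 of 10 (1.75%). Microglia-like, neuroblast-like and astrocyte-like cells were called for none of the 10 genes in either direction, against 5.9%, 11.7% and 9.52% of all genes for higher and 0.979%, 1.11% and 0.234% for lower.

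The median class moved with the make-up of the suffix, which bears on these counts. It was drawn from 9 classes in suffixes 1 and 2 and from 7 in suffix 3. In suffix 3 the vessel and border macrophage classes came in, and the lymphocytes and neutrophils fell under 50 cells. So did the oligodendrocyte-precursor-like (48 cells) and choroid-plexus-like (4 cells) classes. The median Fos level was 723, 1001 and 6067 CPM in suffixes 1, 2 and 3, and in suffix 3 the median class for Fos was the microglia-like class itself. Without suffix 3, microglia-like cells exceeded the median class for 5 of the 10 genes, against 8.38% of all genes tested in those suffixes. Against the median of the 4 classes present in every suffix, an alternative added after seeing the data, they did so for 6 of 10 (6.28% of all genes) and endothelial-like cells for 10 of 10 (12.5%).

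Direct comparison within a suffix, also added after seeing the data, avoids the shifting median. Microglia-like cells exceeded oligodendrocyte-like cells at least 2-fold in all 3 suffixes for 9 of the 10 genes, against 9.79% of all genes. The exception was Jund, whose folds were 1.90, 1.86 and 2.65. The largest folds were those of Atf3, at 37.3, 27.2 and 58.8 in suffixes 1, 2 and 3. They stand on low oligodendrocyte-like levels of 62.5, 88.0 and 62.0 CPM. The summed microglial markers in the same cells were 86.6, 103 and 65.2 CPM, and the part of RNA from other cells in these levels was not tested. The median fold of the 10 genes was 8.18, 10.8 and 19.4, where the median over all genes was 0.853, 0.846 and 0.969. In suffix 3, endothelial-like cells exceeded oligodendrocyte-like cells for all 10 genes, against 15.3% of all genes, with a median fold of 27.8 and a range from 4.97 for Jund to 61.3 for Atf3. The Atf3 fold stands on the same low oligodendrocyte-like level. Endothelial-like and microglia-like cells of suffix 3 were closer to each other. Only Fosb (2.20-fold), Nr4a1 (8.92-fold) and Ier2 (2.45-fold) were at least 2-fold higher in endothelial-like cells, 3 of 10 against 12.4% of all genes, while Jun, Egr1, Atf3 and Btg2 lay between 0.897-fold and 1.08-fold. Mural-cell-like cells of the same suffix exceeded microglia-like cells at least 2-fold for Nr4a1 alone (9.49-fold), 1 of 10 against 15.1% of all genes. Border-associated-macrophage-like cells did so for none of the 10, against 3.58% of all genes, with folds from 0.807 to 1.68. Both counts are near the share over all genes.

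The levels also differed between the libraries within a class, and not to the same extent in every class. Summed over the 10 genes, microglia-like cells held 1.76%, 1.98% and 3.50% of their UMIs in suffixes 1, 2 and 3, and neuroblast-like cells 0.638%, 0.804% and 1.12%. In oligodendrocyte-like cells the values were 0.263%, 0.230% and 0.256%, so that the rise in suffix 3 was not shared by the class that had the most cells there. A range over the suffixes of at least 2-fold was found for 4 of the 10 genes in microglia-like cells, Jun (2.82-fold), Ier2 (2.21), Junb (2.18) and Egr1 (2.02), against 7.47% of all genes. Suffix 3 was the highest for all 4. The same number, 4 of 10, was found in neuroblast-like cells, for Ier2 (2.44-fold), Egr1 (2.14), Fos (2.13) and Atf3 (2.10), against 1.46% of all genes, again with suffix 3 the highest. None of the 10 reached 2-fold in oligodendrocyte-like cells (1.11% of all genes) or in T-cell-like cells (0.395%), the latter over suffixes 1 and 2 only, nor in neutrophil-like (9.54%), NK-cell-like (1.17%) or oligodendrocyte-precursor-like cells (0.728%) over the same suffixes. In astrocyte-like cells 7 of 10 did so, against 15.2% of all genes, of which 6 were highest in suffix 2 and Ier2 in suffix 3. In choroid-plexus-like cells 8 of 10 did so between the 50 cells of suffix 1 and the 55 of suffix 2, against 2.87% of all genes, all highest in suffix 2. The summed share of the median choroid-plexus-like cell hardly differed, at 0.0595% in suffix 1 and 0.0617% in suffix 2. The 95th percentiles were 0.143% and 0.928%, so the gap lay in the upper tail. In astrocyte-like cells the medians were 0.0940%, 0.145% and 0.143% in suffixes 1, 2 and 3, and the 95th percentiles 1.16%, 3.25% and 2.74%. In pooled levels, the highest suffix was thus not the same in all classes. The widest range among the classes with 3 suffixes was that of Atf3 in astrocyte-like cells, at 73.7, 396 and 156 CPM, which rests on 66, 102 and 147 cells. Suffix, mouse pool, condition, dissociation and sequencing run cannot be told apart here. In microglia-like cells the summed microglial markers moved too, at 4362, 4087 and 8409 CPM in the 3 suffixes.

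**Figure D3:**
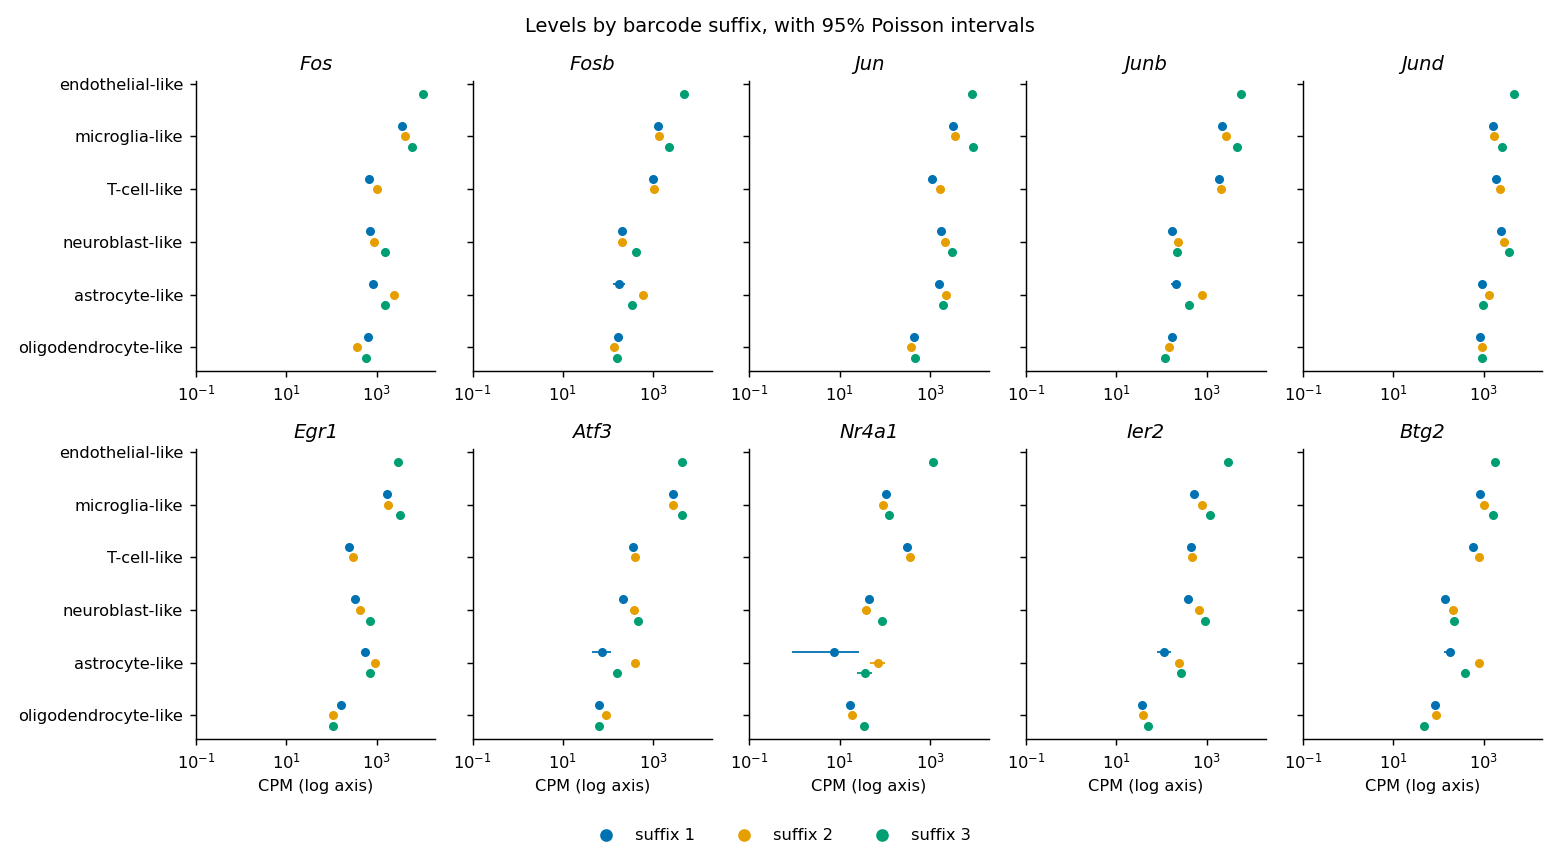
Level of each gene (CPM, log axis) in 6 cell classes, by barcode suffix (colours), with exact 95% Poisson intervals that are mostly smaller than the points. Endothelial-like cells are shown for suffix 3 and T-cell-like cells for suffixes 1 and 2, the suffixes in which they had at least 50 cells, and the interval of Nr4a1 in astrocyte-like cells of suffix 1 is wide because it rests on 2 UMIs.

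The ratio of the UMIs of 2 genes within a class does not depend on how much RNA the other genes take up, and these ratios differed between classes. The ratio of Junb to Jund was 0.0689 in neuroblast-like, 0.158 in oligodendrocyte-like and 0.221 in oligodendrocyte-precursor-like cells. It was 0.919 in T-cell-like, 1.53 in microglia-like, 1.70 in mural-cell-like and 2.86 in neutrophil-like cells. The gap held in every suffix, the ratio being 0.0692, 0.0804 and 0.0588 in neuroblast-like cells and 1.35, 1.53 and 1.88 in microglia-like cells. The ratio of Fosb to Fos over all cells exceeded 1 in the lymphocytes only, at 1.86 in NK-cell-like and 1.14 in T-cell-like cells, and lay between 0.234 and 0.906 in the other 11 classes. In suffixes 1 and 2 it was 2.15 and 1.39 in NK-cell-like cells and 1.39 and 1.01 in T-cell-like cells, so the T-cell-like excess lay mostly in suffix 1. Atf3 outnumbered Fos in neutrophil-like cells, with a ratio of 3.22 (3.25 and 3.34 in suffixes 1 and 2), and in monocyte/dendritic-cell-like cells, with 1.39. The same ratio was 0.677 in microglia-like and 0.0810 in oligodendrocyte-precursor-like cells. The ratio of Nr4a1 to Fos over all cells was lowest in border-associated-macrophage-like (0.0188), microglia-like (0.0236) and astrocyte-like cells (0.0244). Over all cells it was 0.112 in endothelial-like, 0.133 in mural-cell-like, 0.340 in neutrophil-like, 0.384 in T-cell-like and 0.507 in NK-cell-like cells. Within suffix 1 other glia lay below the 0.0301 of microglia-like cells. There it was 0.0278 in oligodendrocyte-precursor-like, 0.0258 in oligodendrocyte-like and 0.00905 in astrocyte-like cells, the last on 2 UMIs of Nr4a1.

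**Figure D4:**
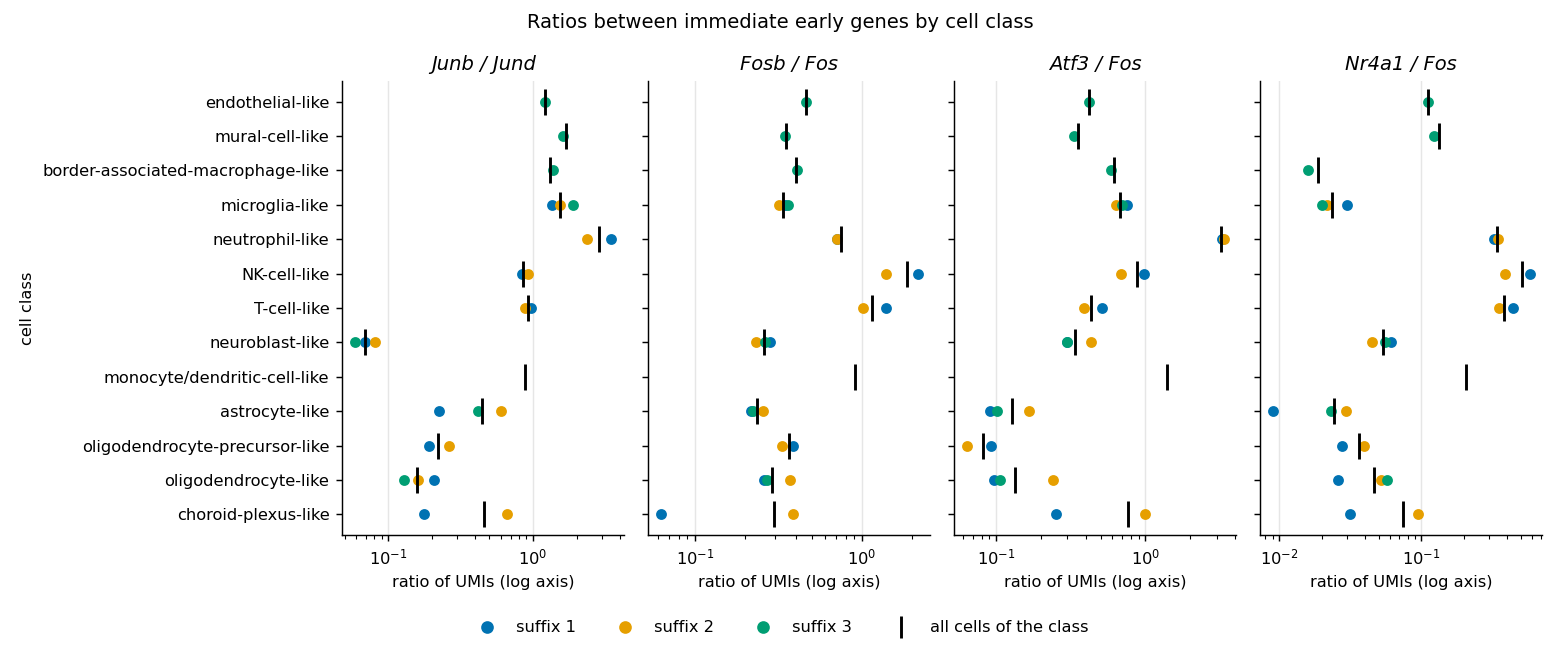
Ratio of the UMIs of 2 genes (log axes) in each cell class (ordered by the summed level), for 4 pairs of genes. Coloured points are suffixes with at least 50 cells of the class and black bars all its cells. The neuroblast-like class is lowest for Junb over Jund (0.0689), and the NK-cell-like and T-cell-like classes lie highest for Fosb over Fos (1.86 and 1.14).

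Within classes, the genes tended to be found in the same cells. For this purpose cells were thinned to 1000 UMIs, and the share of cells holding both genes of a pair was set against the product of the 2 shares. In microglia-like cells the share exceeded the product for 45 of 45 pairs in suffixes 1 and 2 and for 42 of 45 in suffix 3. The highest rank correlation over cells was that of Fos with Jun in all 3 suffixes (Spearman's rho 0.589, 0.498 and 0.526, over 3137, 5490 and 1609 cells). In endothelial-like cells it was that of Fos with Junb (0.526 over 778 cells), with Fos and Jun at 0.501. Neuroblast-like cells differed, in that Jun went most with Jund in suffixes 1 and 2 (0.435 and 0.418), and with Fos in suffix 3 (0.582). T-cell-like cells had lower values, the highest being 0.283 for Fos with Jun in suffix 1 and 0.302 for Fos with Junb in suffix 2. In oligodendrocyte-like cells the median rank correlation over the 45 pairs was 0.0741, 0.0666 and 0.0785, which in such sparse counts is no finding. The share with both genes still exceeded the product for 40, 41 and 44 of 45 pairs there. Its median ratio to the product was 1.45, 1.47 and 1.44, against 1.16, 1.08 and 1.04 in microglia-like cells. That ratio is bounded where both genes are found in most cells, so the classes were not ranked by it. These correlations are over cells of 1 library, which are not replicates and which share its handling.

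The levels also varied with the UMI number and the mitochondrial share of the cells. In microglia-like cells of 2500 to 5000 UMIs the 10 genes summed to 28244, 32458 and 37453 CPM in suffixes 1, 2 and 3. In microglia-like cells above 10000 UMIs the sums were 12182, 15720.1 and 30839 CPM, so that these cells held less than those of 2500 to 5000 UMIs in every suffix, by the least in suffix 3. Cells of 1000 to 2500 UMIs were also below those of 2500 to 5000, at 17538, 24789 and 21787 CPM. Of those largest cells, 1127 and 2125 were in suffixes 1 and 2 and 134 in suffix 3. Within the bin of 5000 to 10000 UMIs, suffix 3 was still the highest, at 36049 against 27628 and 25887 CPM. Neuroblast-like cells fell likewise, from 10663, 9832 and 16437 CPM at 2500 to 5000 UMIs to 3172, 5003 and 6153 CPM above 10000. In T-cell-like cells of suffix 1 the sum was 12481 CPM at 2500 to 5000 UMIs and 4137 CPM above 10000. Oligodendrocyte-like cells hardly changed above 2500 UMIs, lying between 2108 and 2760.4 CPM in all bins and suffixes. Endothelial-like cells of suffix 3 lay between 40187 and 52629.5 CPM in all 4 bins. By mitochondrial share, microglia-like cells of suffix 1 fell from 17705 CPM below 5% to 13412 CPM between 10% and 20%, and those of suffix 2 from 19906 to 13817 CPM, while Jun was 3190 and 3337 CPM in the same bins of suffix 1. Cell size, cell state and RNA loss cannot be told apart in these bins.

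**Figure D5:**
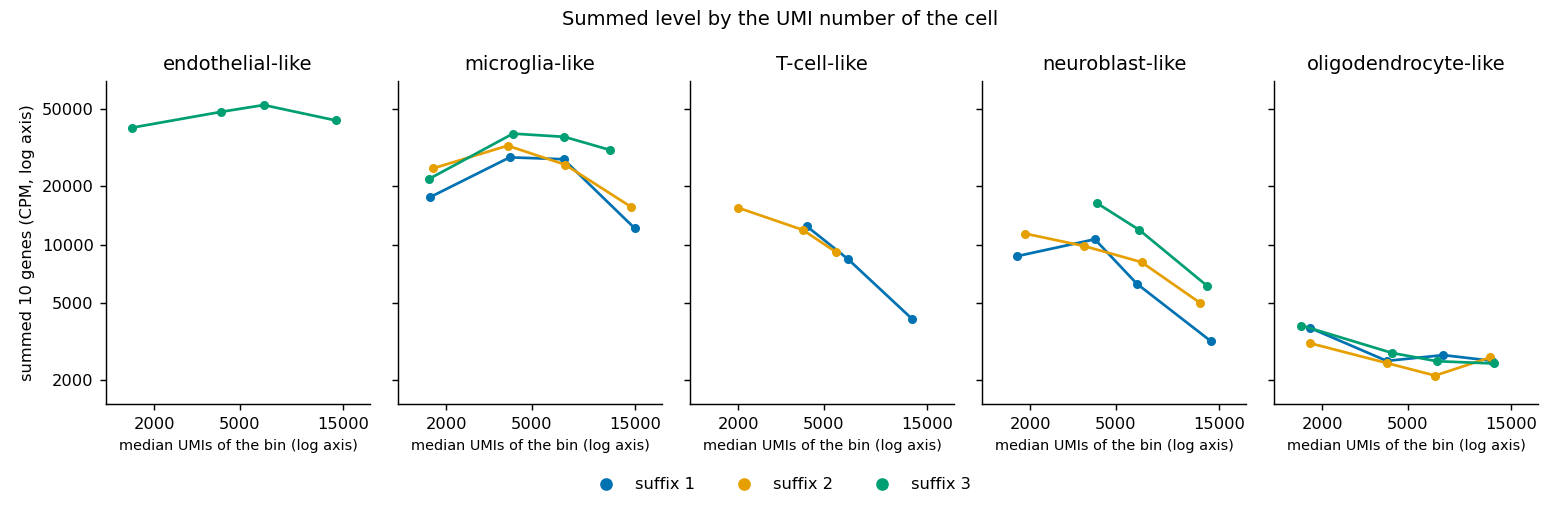
Summed level of the 10 genes (CPM, log axis) against the median UMI number of the cells in a bin (log axis), for 5 cell classes and by barcode suffix (colours), for bins with at least 50 cells. The microglia-like, T-cell-like and neuroblast-like curves end below their highest point in the cells of most UMIs, and the oligodendrocyte-like points lie between 2108 and 3824 CPM.

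A list of 10 genes often raised by dissociation (6 heat-shock genes, Nfkbia, Rgs1, Ccl3 and Ccl4) was measured alongside. Compared with the median class, microglia-like cells were higher for 4 of the 10 (Nfkbia, Rgs1, Ccl3 and Ccl4; 5.9% of all genes), T-cell-like cells for 5 (Hspa1a, Hspa1b, Dnajb1, Nfkbia and Rgs1; 6.43%) and endothelial-like cells for 3 (Hspa1a, Hspa1b and Nfkbia; 10.7%), whereas oligodendrocyte-like cells were called for 0 and neuroblast-like cells were lower for 2 (Hspa1a and Hspa1b; 1.11%). Hspa1a, an inducible heat-shock chaperone, was highest in border-associated-macrophage-like (9560.2 CPM) and endothelial-like cells (6954 CPM), which were also among the highest for Fos and Jun. In microglia-like cells Hspa1a was 776, 1166 and 2906 CPM in the 3 suffixes, in the same order as the summed immediate early genes. The chemokine gene Ccl4 had the other pattern there, at 23564, 24667 and 12196 CPM, and so had Ccl3, at 6330 (suffix 1), 7011 (suffix 2) and 3815 CPM (suffix 3). Over the whole list of 10, microglia-like cells held means of 39.3, 43.5 and 28.4 UMIs per 1000, lowest in suffix 3, where the immediate early genes were highest (21.4, 23.5 and 34.4). In neuroblast-like cells Hspa1a was 19.9, 58.1 and 84.0 CPM, the lowest of any class over all cells, whereas Jun, Jund and Ier2 were not the lowest there. In T-cell-like cells Hspa1a was 542 CPM in suffix 1 and 2245 CPM in suffix 2, a wider gap than that of any of the 10 immediate early genes, whose summed shares were 0.833% and 1.03%.

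Over single cells thinned to 1000 UMIs, the summed immediate early genes and the summed heat-shock genes were correlated in microglia-like cells (Spearman's rho 0.628, 0.610 and 0.369), in T-cell-like cells (0.464 and 0.447 in suffixes 1 and 2) and in endothelial-like cells (0.443 in suffix 3). With the whole list of 10 in place of the heat-shock genes, rho was 0.479, 0.353 and 0.207 in microglia-like, 0.555 and 0.516 in T-cell-like and 0.437 in endothelial-like cells. For the heat-shock genes, the 66 border-associated-macrophage-like cells of suffix 3 had a rho of 0.785. Neutrophil-like cells had 0.121 and 0.215 in suffixes 1 and 2, where their immediate early genes were at means of 17.0 and 15.0 UMIs per 1000. High immediate early gene levels thus did not always go with a high rho. The values for the heat-shock genes in oligodendrocyte-like cells (0.0407, 0.0675 and 0.0923) and neuroblast-like cells (0.00946, 0.0301 and 0.125) were weak. In those 2 classes the heat-shock sum was mostly Hspa8, a constitutive chaperone, and Hsp90aa1. They were at 1666 to 1927 and 2104 to 2440 CPM over the suffixes of neuroblast-like cells, where Hspa1b was 16.7 to 40.1 CPM. Hspa8 and Hsp90aa1 were the highest heat-shock genes in T-cell-like cells too, where rho was higher. There they had 2912 and 2314 CPM in suffix 1 and 4765 and 5355 CPM in suffix 2. Whether the make-up of the sum bears on rho was not tested. The part of dissociation in the immediate early gene levels was not tested.

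Of 29 further immediate early and related genes, 27 reached 20 CPM in a class, Egr4 and Npas4 being the exceptions. Relative to the median class, endothelial-like cells were higher for 13 (10.7% of all genes) and lower for 0, T-cell-like cells higher for 12 (6.43%) and lower for 0, microglia-like cells higher for 6 (5.9%) and lower for 0, and oligodendrocyte-like cells higher for 1 (9.26%) and lower for 5 (1.72%). Neuroblast-like and astrocyte-like cells were higher for 0 (11.7% and 9.52%) and lower for 3 and 2 (1.11% and 0.234%). The endothelial set included Klf4, a shear-responsive factor, Klf2 and the matricellular gene Cyr61. Within suffix 3, which held most endothelial-like cells, Klf4 was 3394 CPM in endothelial-like against 1688 CPM in microglia-like cells. In the same suffix Klf2 was 6870 against 3305 CPM and Cyr61 1518 against 9.74 CPM. Mural-cell-like cells of that suffix were below microglia-like cells for Klf4 (1134 CPM) and Klf2 (2078 CPM) but not for Cyr61 (387 CPM). Over all cells, border-associated-macrophage-like cells were second for Klf2 (6212 CPM) and Klf4 (2331 CPM). Ier3, which protects against apoptosis, was highest in neutrophil-like (1933 CPM) and endothelial-like cells (1915). The T-cell set included Nr4a2 and Nr4a3, the relatives of Nr4a1, at 155 and 126 CPM, where microglia-like cells had 5.51 and 26.9 CPM. Both genes were also called higher in endothelial-like cells, at 332 and 70.3 CPM. Nr4a2 was highest in mural-cell-like cells (372 CPM) and Nr4a3 in monocyte/dendritic-cell-like cells (130 CPM). The gene raised in oligodendrocyte-like cells was Arc, a synaptic plasticity gene, at 34.0, 26.1 and 30.2 CPM in the 3 suffixes against 2.99, 2.52 and 10.3 CPM in microglia-like cells. Compared directly with oligodendrocyte-like cells, microglia-like cells were at least 2-fold higher for 18 of the 27 (9.79% of all genes) and endothelial-like cells for 22 (15.3%), with 1, Arc, lower.

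Across the 25 units formed by a class in a suffix, the patterns of the 10 genes were alike but not the same. For each gene, the 3 genes with the most similar log2(CPM + 10) were sought among 11762 genes. Fos went with Egr1 (Pearson's r 0.951), Jun (0.919) and Klf4 (0.901). Junb went with Klf2 (0.970), Btg2 (0.959) and Zfp36 (0.948), and Atf3 with Maff (0.951), Dusp1 (0.950) and Zfp36 (0.929), all of them immediate early genes of the lists above. Nr4a1 and Jund did not have another immediate early gene of these lists among their 3 nearest. Nr4a1 went with Sertad1 (0.944), Mafk (0.899) and Arid5a (0.899), and Jund with Brd2 (0.918), Sar1a (0.905) and Atf4 (0.903). Among the 10 genes the lowest r was that of Egr1 with Nr4a1 (0.568) and the highest that of Junb with Btg2 (0.959). The units share libraries and classes and are not independent, so these values are descriptions.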

How the data were processed

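The deposited file is a matrix of raw UMI counts that the authors made with Cell Ranger 3.1.0 and STAR (mm10, per the submitters' processing notes, which also name Seurat 3.1.1), aggregating the 3 libraries after reads were down-sampled to even depth. The counts carry no cell annotation, so classes were gated with 8 to 10 markers each for 17 cell types. The 10 genes and all lists were chosen with earlier results of these data known. Counts were summed per class and suffix and divided by the class's UMIs (CPM). Exact Poisson and Clopper-Pearson intervals were used at the 95% level, the limit for a count of 0 was 3 counts, and classes under 50 cells in a unit were not compared. Cells passing more than 1 gate were left out, and no doublet caller was run. Since the matrix pools libraries with no map to the conditions, it was treated as 1 sample with no test. Named genes were the 10 members, listed genes called in a class or highest in one, and the 3 nearest genes of each member. Alternatives changed the filters, gates, pseudocount and suffixes. The call rule was tested on simulated data of 3000 cells over 31053 genes, for microglia-like cells against the median of 5 classes. There 98.9% of genes raised 3-fold and 88.7% of genes lowered 3-fold were called. All simulated suffixes held the same classes with the same profiles. The rates therefore do not cover a median class that shifts between suffixes, as it did in the data. Python 3.11.15, NumPy 2.4.6, SciPy 1.17.1, pandas 2.3.3 and Matplotlib 3.10.9 were used.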

Additional observations from a re-analysis of the deposited data

Results flagged for a closer look

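Transcripts of the 10 genes were also found in 4 groups of barcodes that no comparison used, all far above the level that 3 counts would give. The 3785 cells that passed the gates of more than 1 class had a summed level of 19594.5 CPM (95% Poisson interval 19554 to 19635), with 9887, 13201 and 29705.5 CPM in suffixes 1, 2 and 3 and a Fos UMI in 92.2% of cells. The 1683 cells below every gate had 15911 CPM at a median of 1757 UMIs, with 13425, 18963 and 9721 CPM in the 3 suffixes. The 2442 barcodes under 1000 UMIs and at most 30% mitochondrial had 14435 CPM, near the same value in each suffix (14190, 15253 and 13420 CPM). The 1544 barcodes above 30% mitochondrial had the lowest level, 3180 CPM, with 3480.0, 3909 and 2824 CPM in the 3 suffixes.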

How the results depend on the processing

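The counts of members called against the median class depended on the cells kept and on the classes that set the median. Except where given above, the share of all genes called was not computed under these settings. The counts below therefore show how the calls moved, and whether all genes moved with the members was not tested. With a minimum of 2000 UMIs, members called higher numbered 1 in microglia-like, 1 in T-cell-like and 6 in endothelial-like cells, and 3 were lower in neuroblast-like cells. A mitochondrial share of at most 10%, and limits at the mean plus 2 SD, each gave 1 higher in T-cell-like and 3 lower in neuroblast-like cells. A looser gate of 2 markers and 3 UMIs gave 1 higher in microglia-like, 1 in T-cell-like and 6 in endothelial-like cells and 3 lower in neuroblast-like cells. A stricter gate of 4 markers and 6 UMIs gave 2, 4 and 6 higher in the same classes, 1 lower in neuroblast-like and 5 lower in astrocyte-like cells. Giving mixed cells to the class with 5 times the marker UMIs gave 2 higher in microglia-like, 6 in endothelial-like and 1 lower in neuroblast-like cells. Averaging CPM over cells left 2 genes with a 2-fold range in microglia-like cells, and adding 1 CPM in place of 10 gave 1 lower in neuroblast-like cells. Relative to oligodendrocyte-like cells, members higher numbered 9 in microglia-like, 8 in T-cell-like, 4 in neuroblast-like, 4 in astrocyte-like and 10 in endothelial-like cells, and relative to the classes found in every suffix 6 in microglia-like and 10 in endothelial-like cells, both chosen after seeing the data. For the changes with the filters and gates, the cause was not tested.

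Leaving out 1 suffix at a time, members higher ranged from 0 to 5 in microglia-like (5 without suffix 3), 2 to 4 in T-cell-like (4 without suffix 2, a value that rests on suffix 1) and 0 to 1 in astrocyte-like cells. Members lower ranged from 0 to 3 in neuroblast-like (3 without suffix 1) and 0 to 4 in astrocyte-like cells (4 without suffix 2). The 2-fold ranges fell from 4 to 0 in microglia-like cells without suffix 3 and to 1 without suffix 1, and in neuroblast-like cells to 0 without either suffix. Endothelial-like cells give no value without suffix 3. A minimum of 500 UMIs and no filter on low values left all 16 counts within 1.5 times. Of the levels in 6 classes, 7 moved over 1.5 times, all in astrocyte-like cells, the lowest being 0.575 of the reported value. No paired analysis was possible because no suffix is assigned to a replicate or condition.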
